A study of Hipposideros armiger with 2 samples.

Results

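The interferon-stimulated antiviral genes are a set of 38 genes that vertebrate cells switch on after interferon, from the ubiquitin-like protein ISG15 to the MX GTPases. Members were chosen by name alone: an assembled transcript cluster belonged to a member when the authors' best Swiss-Prot match, in upper case, was the member's symbol. By that rule 34 of the 38 were found, in 68 assembled genes, among 12783 distinct names in all. No assembled gene had the name of RSAD2 (viperin), IFI27, IFI44 or IFI44L, and RSAD2 alone among these 4 has a symbol in RefSeq's table for the bat.

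RNA had been sequenced from 2 libraries labelled liver of wild-caught Hipposideros armiger, a leaf-nosed bat. Both are labelled WT, both come from the CW cave (Chunwan City, Guangdong), and both carry the treatment label of exposure to heavy metals. The design text describes adult male animals, and the labels state sex and age for replicate 2 only. The infection history of the animals is unknown here, and the labels do not tie the libraries to animals. The 2 libraries form 1 group, so levels and the difference between the libraries can be described, but there is no comparison between conditions and no p-value. Bats of the second cave were not analysed here. Paired values below are in the order replicate 1, then replicate 2.

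Interferons are secreted by cells that sense foreign nucleic acid, and they act on neighbouring cells through paired receptors and JAK kinases. Type I and type III interferons activate a complex that contains STAT2 and IRF9 and binds the promoters of the genes described here. Many of these genes are also transcribed at a low level without infection, and the liver responds to interferon strongly. Bats have drawn attention for their interferon system because many of them carry viruses with little sign of disease.

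The libraries differed in tissue markers before any interferon gene was considered. Replicate 1 held 18741210 expected counts and replicate 2 held 18778331. Each of the 10 hepatocyte markers was lower in replicate 2 by more than 2-fold, and their summed level was 14054 TPM (a level normalised for transcript length and library size) in replicate 1 and 384 TPM in replicate 2. Surfactant and airway epithelium markers, which liver should lack, summed to 11935 and 18996 TPM. Hepatocyte markers were thus low in replicate 2, and the summed airway markers stood high in both libraries. Each value below is therefore given for each library by itself.

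Together the members held 1214 TPM in replicate 1 and 1583 TPM in replicate 2 (mean 1398 ± 261, SD, n = 2 libraries). In counts this was 0.114% of replicate 1 (Wilson 95% interval 0.113% to 0.116%) and 0.139% of replicate 2 (0.137% to 0.141%). A single gene dominated the sum: IFITM3 held 53.7% of it in replicate 1 and 52.0% in replicate 2, and with ISG15 the share was 65.0% and 66.1%. Most members stood far below these 2 genes, with a median over the found members of 10.3 and 13.7 TPM against 8.74 and 10.3 TPM over all names. At least 1 TPM was reached by 34 found members in replicate 1, where 95.8% of all names reached it, and by 33 in replicate 2, where 94.7% did. At least 10 TPM was reached by 19 and 20 members, or 55.9% and 58.8% of those found, against 45.4% and 51.0% of all names. The found members were thus detected about as often as other names.

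**Figure D1:**
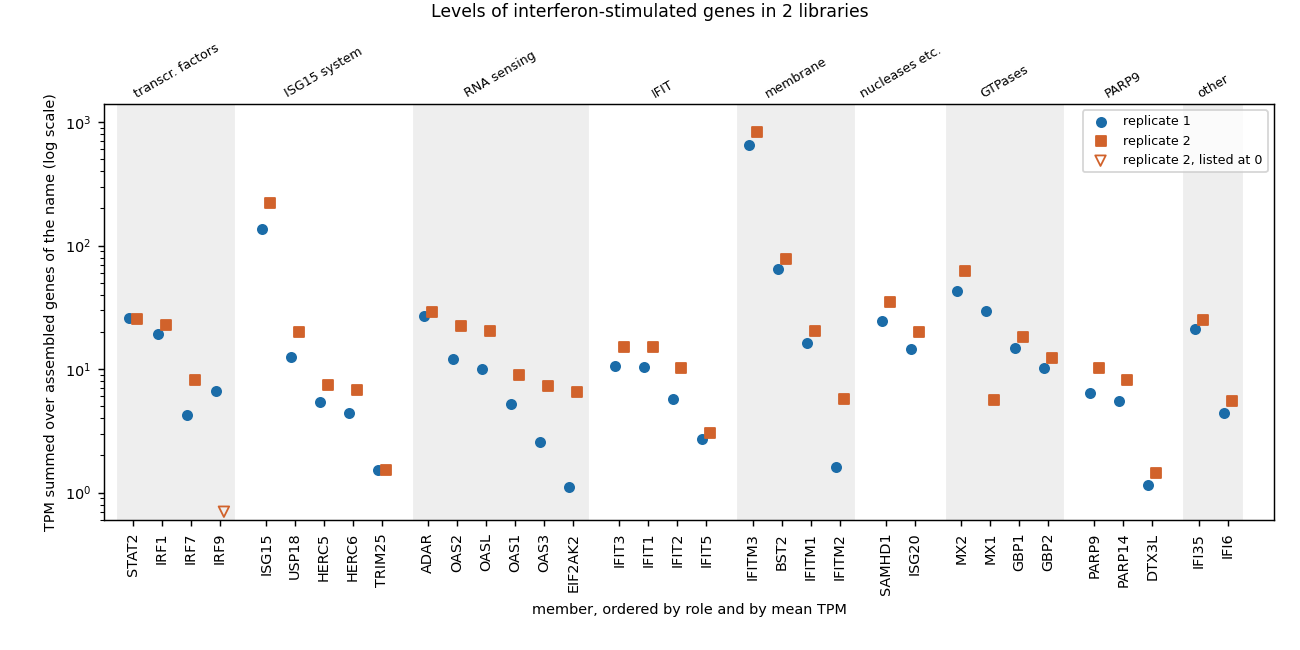
TPM of the 34 found members in replicate 1 (blue circles) and replicate 2 (orange squares) on a log axis, ordered by role and mean level. IFITM3 and ISG15 stand above 100 TPM in both libraries, and IRF9 is listed at 0 in replicate 2 (open triangle).

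The transcription factors that drive the response were measured at unequal levels. STAT2, the subunit that carries the activation domain of the complex, was at 25.9 and 25.2 TPM, with 1106 and 1353 counts. IRF9, its DNA-binding partner, was carried by 1 assembled gene of 258 bases with 9 counts (6.59 TPM) in replicate 1, and it was listed at 0 in replicate 2. With the 0 set to a floor of 3 counts and the 9 taken as exact, that is 3.6-fold lower, from few reads. The exact interval of the IRF9 count fold, defined below, ran from 0 to 0.423, so a smaller difference than 3.6-fold is not excluded. IRF1, which acts downstream of interferon gamma and inflammatory signals, was at 19.3 and 22.9 TPM. IRF7, the factor that amplifies type I interferon production, was at 4.24 and 8.10 TPM from 169 and 286 counts. It had the highest ratio of any tested member, as described below.

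The ISG15 system was led by ISG15 itself, which is conjugated to proteins in the way of ubiquitin and is also secreted. ISG15 was at 137 and 222 TPM, ranks 433 and 285 of all names. USP18, the protease that removes ISG15 and restrains interferon receptor signalling, was at 12.5 and 19.8 TPM. HERC5, the human ISG15 ligase, was at 5.41 and 7.48 TPM, and its relative HERC6 at 4.40 and 6.81 TPM. TRIM25, a ligase that acts on the RNA sensor RIG-I, was at 1.51 TPM in both libraries, with 70 and 62 counts. The modifier thus stood far above the enzymes that attach and remove it.

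Among the enzymes that recognise double-stranded RNA, ADAR, which edits adenosine in such RNA, had the highest summed level at 26.7 and 29.2 TPM. Its main assembled gene, with 97.3% of its counts, was at 9.14 and 13.7 TPM, which is below OASL in both libraries. The 2'-5'-oligoadenylate synthases make a messenger that activates RNase L. OAS2 was at 12.2 and 22.4 TPM, and OASL, a relative that lacks synthase activity in humans, at 10.03 and 20.3 TPM. OAS1 was at 5.20 and 8.99 TPM. OAS3, 1 assembled gene of 214 bases with 2 and 5 counts, was too shallow to compare. EIF2AK2 (PKR), the kinase that halts translation on sensing such RNA, had 11 and 25 counts in assembled genes of 674 and 271 bases and was likewise under the filter of a mean of 1 CPM (counts normalised for library size alone). On TPM the 4 members beginning with OAS were each higher in replicate 2, as were 77.3% of all names with a mean of at least 1 TPM. For OAS3 this rests on the 2 and 5 counts above.

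Some IFIT proteins, IFIT1 and IFIT5 among them, bind foreign RNA by its 5' end. IFIT3 was at 10.6 and 15.2 TPM, and IFIT1, with which it forms a complex, was at 10.4 and 15.0 TPM. IFIT2 was at 5.68 and 10.3 TPM, and IFIT5 at 2.73 and 3.01 TPM. On summed TPM, IFIT1 and IFIT3 were within 0.3 TPM of each other in both libraries, and IFIT5 was the lowest of the 4. Neither held for the main assembled genes, since short pieces add to the sums. That of IFIT1 was at 6.42 and 9.15 TPM and that of IFIT3 at 8.75 and 12.9 TPM. The main assembled gene of IFIT2, at 2.15 and 2.97 TPM, was below the only one of IFIT5.

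Membrane factors that block entry or release of virus held the highest levels. IFITM3, which hinders fusion of virus with endosomes, was at 652 and 824 TPM, ranks 83 and 65 of 12783 names. IFITM1 was at 16.3 and 20.3 TPM, and IFITM2 at 1.60 and 5.73 TPM from 6 and 19 counts. The authors' assembly placed 51 transcripts in the main IFITM3 gene, and IFITM genes are closely similar copies in mammals, so how reads divide between the 3 names is uncertain. BST2 (tetherin), which holds budding particles on the cell surface, was at 64.7 and 77.9 TPM. The order IFITM3, ISG15, BST2, MX2 was the same in both libraries. Below it the order changed between libraries: MX1 came next in replicate 1 and SAMHD1 in replicate 2.

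Of the effectors that deplete nucleotides or degrade RNA, SAMHD1, which hydrolyses deoxynucleotides, was at 24.7 and 34.9 TPM. ISG20, an exonuclease, was at 14.7 and 19.9 TPM. Viperin, which makes a chain-terminating nucleotide, had no assembled gene of its name.

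The GTPases were led by MX2, at 42.8 and 61.8 TPM from 2493 and 3148 counts. MX1, known for blocking influenza virus, was at 29.6 and 5.60 TPM. GBP1 and GBP2, which attack the vacuoles of intracellular pathogens, were at 14.9 and 18.1 TPM and at 10.1 and 12.4 TPM. MX1 was the only member of this role that was lower in replicate 2 on TPM.

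PARP9, DTX3L and PARP14 are linked to ADP-ribosylation, and PARP9 and DTX3L form a heterodimer with ubiquitin ligase activity. PARP9 was at 6.43 and 10.1 TPM. PARP14 was at 5.56 and 8.17 TPM, and DTX3L at 1.16 and 1.45 TPM. DTX3L was thus well below its partner PARP9 in both libraries. Among the remaining interferon-induced proteins, IFI35 was at 21.2 and 25.0 TPM and the mitochondrial protein IFI6 at 4.44 and 5.54 TPM.

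TPM was higher in replicate 2 for 30 of 34 found members, but also for 77.3% of the 12326 names with a mean of at least 1 TPM. The median log2 ratio of all these names, replicate 2 over replicate 1 on log2(TPM + 1), was 0.33. Ratios from here on therefore use counts scaled by TMM (trimmed mean of M values) factors, on log2(CPM + 1), with the median of all names removed. They were taken for 11290 names with a mean of at least 1 CPM, of which 30 were members. IRF9, OAS3, EIF2AK2 and IFITM2 were found but lay under this level.

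No tested member was over 2-fold apart between the libraries. Past the same limit lay 5.16% of all names on the lower side and 0.0266% on the higher side. On TPM, where length weighs in, 4 of 34 found members passed it. These were IRF9 and MX1 lower, against 7.72% of names, and EIF2AK2 and IFITM2 higher, against 1.39%. The median log2 ratio of the 30 members was 0.02, and 16 were above 0 and 14 below, where 50% of all names are above 0 by construction. Their median absolute deviation was 0.11, against 0.15 over all names. The lowest member ratio was that of MX1 (-0.60) and the highest that of IRF7 (0.46). Between the 10th and 90th percentiles, members ran from -0.22 to 0.33 and all names from -0.49 to 0.24. With 1 library against 1 these ratios have no replicate check, and 0 calls do not show that levels were equal.

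Counting error separates some members from this median and not others. The fold given here is the TMM-scaled count ratio of replicate 2 over replicate 1 relative to the median of all names, with an exact 95% interval that covers counting error only and compares these 2 libraries. For 6 of the 30 members the interval lay above 1, for 3 below 1, and for 21 it held 1. Over all names tested 15.2% lay above and 20.1% below, so these counts describe the precision of single genes.

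**Figure D2:**
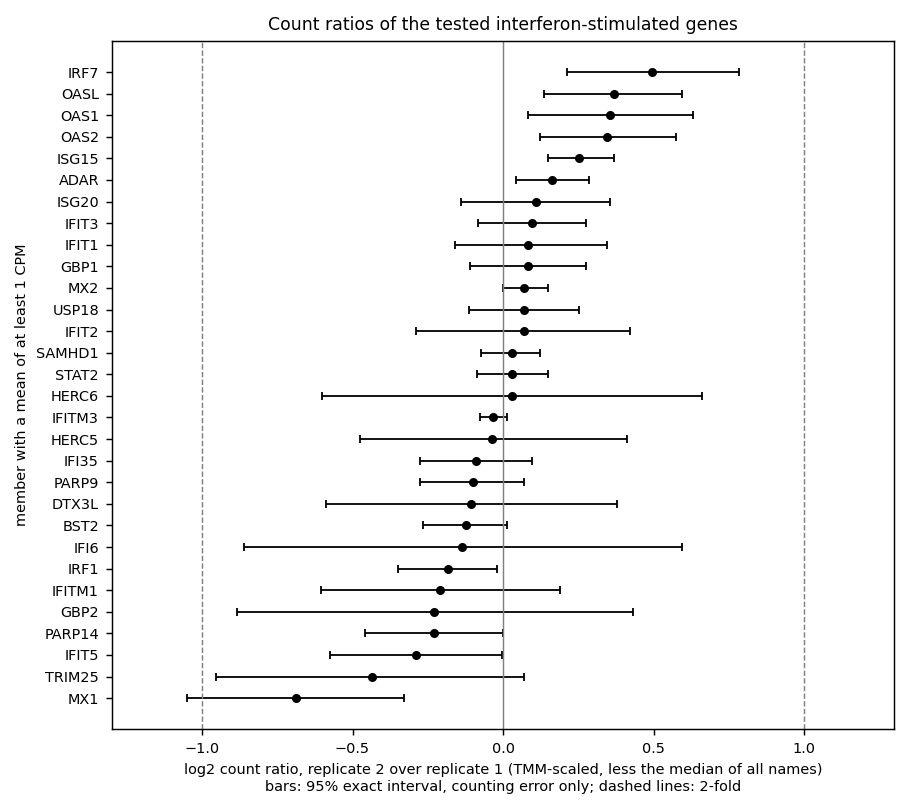
Log2 count ratio of replicate 2 over replicate 1 for the 30 tested members, relative to the median of all names, with 95% exact counting intervals. IRF7, OASL, OAS1, OAS2, ISG15 and ADAR have intervals above 0, while MX1, IFIT5 and IRF1 have intervals below 0, and every point lies inside the dashed 2-fold lines.

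The 6 members with an interval above 1 were IRF7, the tested oligoadenylate synthase names, ISG15 and ADAR. IRF7 had a fold of 1.41 (1.16 to 1.72), at percentile 98.5 of all names tested by log2 ratio. OASL had a fold of 1.29 (1.10 to 1.51), OAS1 of 1.28 (1.06 to 1.55) and OAS2 of 1.27 (1.09 to 1.49), all 3 between percentiles 95.6 and 96.1. The intervals of the 3 synthase names overlapped almost wholly. ISG15 had a fold of 1.19 (1.11 to 1.29) at percentile 90.9. ADAR had a fold of 1.12 (1.03 to 1.22), and its ratio had the other sign on TPM, at -0.21 less the median.

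Summed over OAS1, OAS2, OAS3 and OASL, counts were 713 in replicate 1 and 1096 in replicate 2, a fold of 1.28 (1.17 to 1.41). By comparison the 4 IFIT names summed to 1020 and 1241 counts, a fold of 1.01 (0.933 to 1.10), and the 3 IFITM names to 7934 and 9299 counts, a fold of 0.977 (0.948 to 1.01). The intervals of the synthases and of the IFIT genes did not overlap, a contrast chosen after the values were seen. IFITM3, the most deeply counted member with 7822 and 9170 counts, had a fold of 0.978 (0.949 to 1.01). MX2 had a fold of 1.05 (0.999 to 1.11), SAMHD1 of 1.02 (0.951 to 1.09) and STAT2 of 1.02 (0.942 to 1.11). All 4 of these intervals held 1.

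The 3 members with an interval below 1 were MX1, IFIT5 and IRF1. MX1 had a fold of 0.621 (0.483 to 0.797), IFIT5 of 0.818 (0.671 to 0.997) and IRF1 of 0.880 (0.786 to 0.986). TRIM25 had the lowest ratio after MX1, with a fold of 0.739 (0.516 to 1.05) from 70 and 62 counts.

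Several members rested on more than 1 assembled gene, and this bore on their values. Of the 34 found, 20 had several assembled genes, and 30 of the 68 were under 500 bases. Those short pieces held 1.06% and 0.941% of the members' counts but 9.82% and 9.39% of their TPM, since TPM divides by length. ADAR was one such gene. Its main assembled gene of 5899 bases held 97.3% of its counts, but 34.2% of its TPM in replicate 1 and 46.8% in replicate 2. Its other 4 assembled genes had 5 to 17.9 counts each in replicate 1. IFIT2 behaved alike, with 93.8% of counts but 37.9% and 28.9% of TPM in its main assembled gene.

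**Figure D3:**
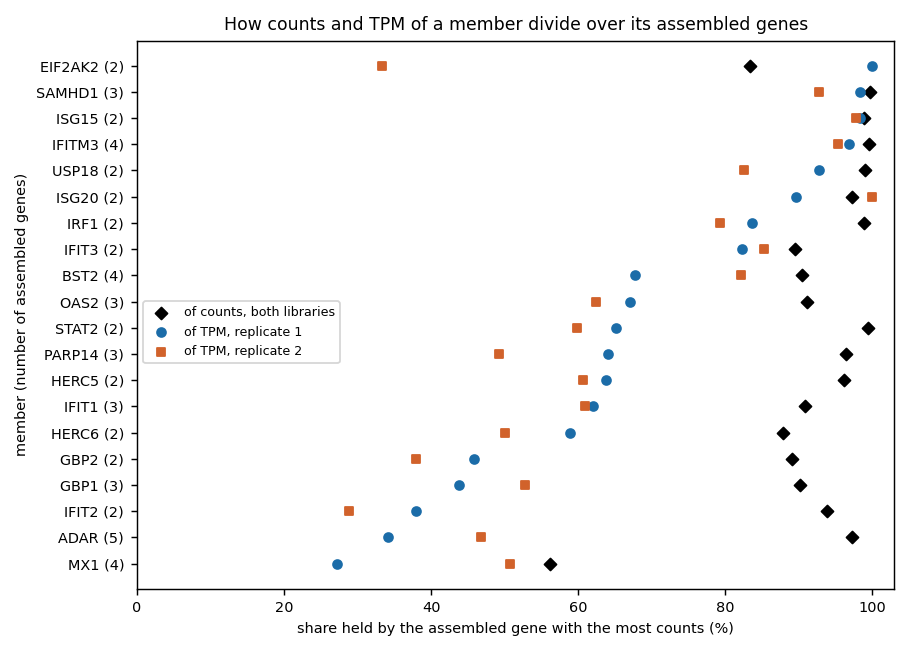
Share of each member's counts (black diamonds) and TPM (blue circles, replicate 1, and orange squares, replicate 2) held by its assembled gene with the most counts, for the 20 members with several. Count shares are at 83.3% or above except for MX1 at 56.2%, while TPM shares reach down to 27.2% for MX1 and 28.9% for IFIT2.

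MX1 was split over 4 assembled genes that did not move together. The longest, of 1375 bases, had 79.3 and 70.7 expected counts, and a second of 979 bases had 31.8 and 43.3. The other 2, of 261 and 482 bases, had 23 and 18.9 counts in replicate 1 and were at 0 in replicate 2. Without these 2, chosen after their values were seen, MX1 had 111 and 114 counts and a fold of 0.856 (0.654 to 1.12), whose interval holds 1. The 261-base piece alone, with a best match to macaque MX1, held 16.3 of the 29.6 TPM in replicate 1. The place of the MX1 count interval below 1 thus depended on these 2 short pieces, although leaving out pieces at 0 in replicate 2 can only raise the fold. On TPM, MX1 stayed lower in replicate 2 without them, at 9.82 and 5.60 TPM. Its longest piece was at 8.03 and 2.84 TPM, while the piece of 979 bases was at 1.79 and 2.76 TPM.

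BST2 also had assembled genes that went apart. Its main one, of 849 bases, was at 43.8 and 64.0 TPM, from 628 and 813 expected counts. A second one of 696 bases in the same Trinity cluster had 113 counts in replicate 1 and 1 in replicate 2, a fold of 0.00738 (0.000185 to 0.0420). Without this piece, left out after its values were seen, BST2 had 645 and 833 counts. The fold was then 1.08 (0.971 to 1.20), against 0.918 (0.831 to 1.01) with the piece, and both intervals held 1. Leaving out a piece with 1 count in replicate 2 could only raise the fold here. This piece was the 1 assembled gene over 16-fold lower among the 29 of members with at least 100 summed counts. Of all 11137 such named assembled genes 2.78% were over 16-fold lower. None was over 16-fold higher, against 0.00898% of all. ISG20 had a second assembled gene of 669 bases with 15 counts in replicate 1 and 0 in replicate 2.

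Of the 68 assembled genes of members, 4 had counts in replicate 1 and 0 in replicate 2, and 2 the reverse, which are 5.88% and 2.94%. Over all named assembled genes the shares were 5.72% and 2.71%. Members were thus close to the background in this respect. Hepatocyte markers were also lower in replicate 2, and their part in these pieces was not tested.

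Close relatives could not be separated cleanly. Of 51 Trinity clusters that held a member, 5 held 2 member names: MX1 with MX2, IFIT1 with IFIT3, HERC5 with HERC6, and GBP1 with GBP2 in 2 clusters. Reads of such paralogs may be divided between the names, so their sums are given too. MX1 and MX2 together had 2646 and 3262 counts, a fold of 1.03 (0.976 to 1.08). IFIT1 and IFIT3 had a summed fold of 1.07 (0.966 to 1.18), GBP1 and GBP2 of 1.04 (0.915 to 1.18), and HERC5 and HERC6 of 0.990 (0.773 to 1.27). All 4 pair intervals held 1.

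Across the 34 found members, log2(TPM + 1) in the 2 libraries were related with r = 0.888 (Pearson) and rho = 0.844 (Spearman), against 0.882 and 0.877 over the 12326 names with a mean of at least 1 TPM. These are descriptions across genes that share the same 2 libraries and their depth.

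The signal that these genes answer to was looked for upstream. None of 25 names of type I and type III interferon ligands was found in the assembly, nor was that of interferon gamma. The receptors and kinases were all found, 9 of 9. IFNGR2, a chain of the interferon gamma receptor, was at 46.3 and 47.6 TPM, and its partner IFNGR1 at 19.6 and 29.0 TPM. The type I receptor chains stood lower, with IFNAR2 at 2.87 and 4.26 TPM and IFNAR1 at 0.65 and 0.77 TPM. IL10RB, the chain that type III interferon shares with interleukin 10, was at 36.6 and 35.4 TPM, whereas its specific partner IFNLR1 had 4 counts in replicate 1 and 0 in replicate 2. JAK1, the kinase common to the type I, II and III receptors, was the highest of the list at 78.5 and 95.3 TPM. None of the 8 tested was over 2-fold apart.

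Of the other STAT and IRF factors all 9 were found and tested, and 0 were over 2-fold apart. IRF3, the constitutive factor activated by nucleic acid sensors, was at 99.3 and 150 TPM. STAT3, which acts in interleukin signalling, was at 43.5 and 43.9 TPM.

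Nucleic acid sensors and adaptors were found for 13 of 21 names, and 0 of 12 tested were over 2-fold apart. The highest by the mean of both libraries were the adaptor MYD88 at 55.6 and 72.2 TPM, STING (TMEM173) at 10.1 and 12.5 TPM and the DNA sensor IFI16 at 11.6 and 10.1 TPM. IFI16 rested on 23 and 20 counts. Partners of ISG15 conjugation were all found, 5 of 5, led by the conjugating enzyme UBE2L6 at 39.9 and 47.8 TPM with a fold of 0.903 (0.803 to 1.01). UBA7, the activating enzyme of the pathway, was at 14.6 and 20.2 TPM with a fold of 1.31 (1.10 to 1.55). The folds of ARIH1, HERC3 and HERC4 were 0.994, 1.02 and 1.03, with intervals that held 1. All 13 negative regulators were found and 0 were over 2-fold apart on log2(CPM + 1). The ratio of PIAS4, an inhibitor of STAT signalling, was -0.75 on that scale, where the pseudocount shrinks low genes, and its count fold was 0.488 (0.318 to 0.739) from 65 and 38 counts. The highest were PTPN11 at 28.6 and 40.5 TPM, PTPN6 at 23.99 and 41.7 TPM and NLRX1 at 21.1 and 26.8 TPM. SOCS1, a direct inhibitor of JAK kinases that interferon induces, was at 5.97 and 7.95 TPM.

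Other interferon-stimulated genes, outside the 38, numbered 53 in the list, of which 45 were found and 39 tested. UBE2L6 and UBA7 are among them as well as in the lists above. None of these 39 was over 2-fold apart, and their median log2 ratio was 0.05, against 0.02 for the members. LY6E, which restricts coronavirus entry, was the highest at 249 and 379 TPM. TRIM38 was at 64.4 and 110 TPM over 11 assembled genes, and PSMB8, a subunit of the immunoproteasome, at 63.4 and 82.9 TPM. The chemokine CXCL10, which interferon gamma induces strongly, had 8 and 4 counts.

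**Figure D4:**
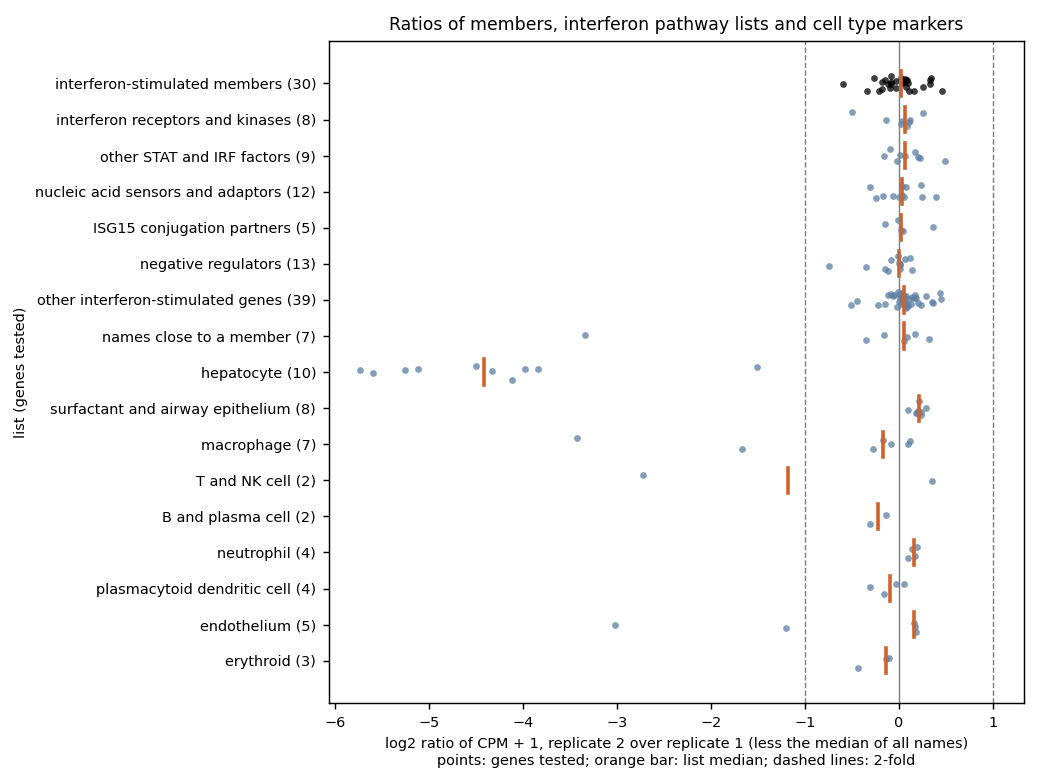
Log2 ratio of CPM + 1, replicate 2 over replicate 1, for tested members (top, black), interferon pathway lists and cell type markers (blue), with list medians as orange bars. The 30 members lie between -0.60 and 0.46, while the 10 hepatocyte markers lie between -5.73 and -1.51.

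Markers of cell types that could carry interferon-stimulated transcripts were set beside the members. The 8 tested surfactant and airway markers had ratios from 0.10 to 0.29. The ninth, SCGB1A1, a club cell secretoglobin, lay under the filter with 1 and 24 counts (0.79 and 21.4 TPM). Neutrophil markers summed to 956 and 1408 TPM, with 4 tested ratios from 0.10 to 0.19, while MPO was at 0 in both libraries and ELANE at 0 and 1 count. Plasmacytoid dendritic cells make much type I interferon, and 4 of their 6 markers were found, summing to 27.6 and 35.01 TPM, with ratios from -0.30 to 0.06. Macrophage markers summed to 363 and 438 TPM, of which LYZ alone held 248 and 358 TPM. Over 2-fold lower in replicate 2 were 2 of the 7, MARCO (10.8 and 0.62 TPM) and CD5L (33.3 and 1.52 TPM). CD163 and CSF1R were also lower on TPM, while CD68 and MRC1 were higher. T and NK cell markers summed to 20.9 and 27.1 TPM, with CD4 at 0 in both libraries and CD8A over 2-fold lower in replicate 2. B and plasma cell markers summed to 108 and 131 TPM.

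Endothelial markers summed to 188 and 172 TPM, with CLEC4G and STAB2 of liver sinusoids over 2-fold lower in replicate 2, and erythroid markers to 29881 and 36304 TPM. The part of any of these cell types in the member levels was not tested, and in whole tissue fewer cells of a type cannot be told apart from less RNA per cell.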

How the data were processed

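The 2 libraries (1 group) were poly(A)-selected, per the labels' protocols. Each library has 1 deposited table, and both list the same 55378 Trinity assembled genes. The submitters' processing notes name cutadapt 1.9, and the mm10 build for replicate 1 only; its role, the aligner and the quantifier are not given in the sources used here. Expected counts, deposited by the authors with decimals, were summed per upper-cased name and rounded to whole numbers. The other value column deposited by the authors was taken for TPM, which by definition is normalised for length and library size. Its header names no unit, and its sums are 996837 and 996239. Assembled genes without a name, 30192 in number, held 8.70% and 9.69% of counts. They were summed into no name but entered the library sizes and the TMM and DESeq2 factors.

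TMM factors (edgeR 4.0.16, R 4.3.3) were 0.910 and 1.10. Names with a mean of at least 1 CPM were compared on log2(CPM + 1), a pseudocount that understates changes of low genes, and the median of all names was removed. Intervals (95%) are Wilson for shares and exact binomial for folds. Both, and the floor of 3 counts, cover counting error alone, as reads lacking molecular identifiers are no independent molecules. The species of a best match need not be that of the transcript. Of the 38 member symbols, 23 are in the RefSeq table of ASM189008v1, and no coordinates from it were used.

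The ratio was tested on simulated data made from these libraries (11287 names). It found 100% of 50 names set 4-fold apart and of 50 set 16-fold apart, each way, and called 0.0902% of the others. The changed names were drawn only from names above a CPM level higher than the filter, and a fixed scatter of counts was assumed. Folds under 4 were not tried, and in the real libraries 5.16% of names were over 2-fold lower. These rates therefore do not carry over to low members or to smaller differences. The rule for named genes took the 12 members highest in mean TPM, members past 2-fold, members split over 3 or more assembled genes, and of each pathway list the 3 highest genes and any past 2-fold. Any further gene was picked with its values known, and some genes of the lists are not reported here. The members and lists were chosen with earlier results of these data known. Alternatives were another pseudocount, other filters and scalings (DESeq2 1.42.0 size factors among them), the highest assembled gene per name, TPM ratios, leaving out ISG15, each replicate or the 10 highest assembled genes. A planned description of promoter motifs was not run. Computation used scipy 1.17.1, pandas 2.3.3 and numpy 2.4.6 under Python 3.11.15, with matplotlib 3.10.9 for plots.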

Additional observations from a re-analysis of the deposited data

How the results depend on the processing

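The summed level of the members ranged from 1214 to 1583 TPM when each replicate was left out in turn, and members at 1 TPM or more from 33 to 34. The mean sum was 1900 TPM after rescaling without the 10 highest assembled genes, a smaller total by construction, and 19.5 members on average reached a level of 10 TPM. The median log2 ratio of members was 0.25 with library size scaling, under which the median of all names was 0.24, with 27 of 30 members and 79.5% of names above 0. Under the other settings it stayed between -0.01 and 0.11. On log2 CPM with a pseudocount, members over 2-fold apart numbered 0 under every setting. They numbered 4 with TPM ratios, where more names pass the filter. IRF9 (-3.26) and MX1 (-2.54) were lower, against 7.72% of names, and EIF2AK2 (1.495) and IFITM2 (1.04) higher, against 1.39%. IRF9, EIF2AK2 and IFITM2 lie under the CPM filter of the counts. Even with no filter, a pseudocount of 1 CPM keeps IRF9, OAS3 and IFITM2 inside 2-fold, so the 0 was fixed for them. The other pseudocount was run with the filter only. Count folds were 0 (0 to 0.423) for IRF9, 2.08 (0.341 to 21.9) for OAS3 and 2.64 (1.01 to 8.08) for IFITM2. Of the 30 tested members, 12 were higher and 9 lower in replicate 2 under all settings that remove the median of all names. Most of these settings scale the same counts, so their signs are not independent, and no such share over all names is given. With library size scaling included, 12 stayed higher and 3 lower, and the sign differed under it for 11. The sign differed with TPM for 7. Settings with only assembled genes of at least 500 bases, or with names of the RefSeq table as background, were added after the data were seen. The planned promoter motif alternatives were not run, as no promoter table was given. No paired analysis was possible because both libraries belong to the same group. Depth limits IRF9, OAS3, EIF2AK2 and IFITM2, and the spread between animals is not known from 1 library against 1.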

Other observations

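Names close to a member, outside the rule, were also looked at. Of 34 such names 11 were found and 7 tested. Over 2-fold lower in replicate 2 was 1 of the 7, where 5.16% of all names tested were, and 0 were over 2-fold higher. IFI27L2, a relative of the absent IFI27, had 158 counts (16.2 TPM) in replicate 1 and was at 0 in replicate 2. With the 0 set to a floor of 3 counts and the 158 taken as exact, that is 63.2-fold lower. The exact interval of its count fold ran from 0 to 0.0197. PARP15, a relative of PARP14, had 11 counts in replicate 1 and 0 in replicate 2, and GBP7 had 12 and 1. Both lie under the CPM filter. In contrast OASL2, a mouse name for a relative of OASL, was at 7.22 and 11.6 TPM with a fold of 1.14 (0.962 to 1.34). IFI30, a lysosomal thiol reductase of antigen processing, was at 38.2 and 23.02 TPM with a fold of 0.779 (0.693 to 0.876).

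Single genes of the wider pathway had counting intervals clear of 1 and were chosen after their values were seen. NMI, which binds IFI35, had a fold of 1.38 (1.20 to 1.58), and TRIM22 of 1.29 (1.17 to 1.42). LAP3 had a fold of 0.730 (0.653 to 0.815) and JAK2 of 0.676 (0.534 to 0.855). All are ratios of 1 library over 1, and 15.2% of all names had an interval above 1 and 20.1% one below.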
